A study of Mus musculus with 4 samples.

Results

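Migratory dendritic cells (DCs) of the mouse mammary gland were followed here in single-cell RNA sequencing of sorted CD45+ immune cells. A cell was counted as a migratory DC when it held at least 1 UMI (a counted RNA molecule) of Ccr7, at least 2 UMIs summed over Fscn1, Ccl22 and Cacnb3, and no UMI of the T cell genes Cd3d, Cd3e and Cd3g or the B cell genes Cd79a and Ms4a1. The rule found 180 such cells among 42781, 94 in the earlier of 2 libraries and 86 in the later. Because the genes of the rule chose the cells, their values describe the choice and are not findings.

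Each library pooled mammary cells marked with antibody-borne hash tags, and a hash-defined sample is the cells of 1 tag in 1 library. In the earlier library the tags stood for nulliparous, gestation and lactation glands and for tag HT2. In the later library they stood for gestation, lactation, involution and regression glands, Balb/c mice, mice called GF, and again HT2. The sample sheets call HT2 germ-free, while the library titles list involution and no germ-free mice for the earlier library, and GF as a separate entry for the later, so HT2 is named by its tag here. The number of mice behind a tag, the strain of the samples other than Balb/c, and the reproductive stage of the Balb/c and GF samples are not stated in the labels. Nulliparous, involution, regression, Balb/c and GF cells each came from 1 hash-defined sample, and gestation, lactation and HT2 from 2, 1 per library.

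DCs survey tissues by taking up antigen, and on maturation they switch from capture to presentation. The chemokine receptor CCR7 then guides them along lymphatic chemokines to the draining lymph node, where they prime or restrain T cells. Matured conventional DCs of both lineages, cDC1 (cross-presenting, XCR1+) and cDC2 (SIRPA+, favouring CD4 T cells), share a programme of raised costimulatory, migratory and regulatory genes, and the mammary epithelium around them is remodelled through pregnancy, lactation and involution.

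The 2 libraries held 56300251 and 90642638 UMIs, with medians of 1599 and 3049 UMIs per cell, in the earlier and the later library, so a given RNA was more easily seen in the later. The median migratory DC held 2534.5 UMIs in the earlier library, against 5830.5 in the later. Hash tags placed 145 of the 180 cells in a single sample, 27 (15.0%) carried more than 1 tag against 16.3% of all cells, and 8 carried none. Scrublet called 6 of the 180 as doublets. A total of 139 cell barcodes occurred in both libraries. T and B cell genes of the rule were at 0 by choice. Of markers of other cell types, the keratins Krt18, Krt14 and Krt5 and the plasmacytoid DC gene Siglech were at 0 in all 180 cells. Their lists were not empty, with 10 epithelial UMIs in 10 of the 180 cells and 135 plasmacytoid DC UMIs in 54. The T cell list held 134 UMIs in 51 cells. The natural killer and innate lymphoid cell list held 237 in 42, and the milk protein list 1627 in 159. The monocyte list held 197 UMIs in 38 of the 180 cells. In the singly tagged cells the monocyte list summed to between 0 and 1.37 UMIs per 10000 over the 11 samples. The macrophage list, 9 genes, ranged from 0.718 to 29.1 per 10000, highest in the 4 cells of the later lactation sample. The B and plasma cell list, 8 genes, ranged from 2.48 to 549 per 10000, and 2061 of its 2608 UMIs came from 1 HT2 cell of the earlier library. The part of these outlying cells in the results was not tested; 1 alternative in the closing section leaves out the HT2 samples.

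Socs2, a feedback inhibitor of cytokine signalling, was among the given markers and not in the rule. Since Socs2 was given together with the rule's genes, its values describe the cells and are not an independent check of the name migratory DC. Socs2 was seen in 68.9% of the 180 cells, against 3.43% of B cells, 2.31% of cDC1 and 2.90% of cDC2, all defined by gates described below. The median depth of the B cells was 2027 UMIs and that of the migratory DCs 3447. Of the rule's genes, Ccr7 had a median of 4 UMIs per cell, Fscn1, the actin-bundling protein fascin, was seen in 83.3% of cells, Cacnb3, a calcium channel subunit, in 85.0%, and Ccl22, a chemokine for CCR4+ T cells, in 67.2%. Just inside the limits lay 5 cells with 1 Ccr7 UMI and a sum of 2 for the other genes, of which 60.0% held Socs2. Just outside lay 22 cells with Ccr7 and a sum of 1, of which 18.2% held Socs2, and 406 cells with Ccr7 and a sum of 0, of which 2.71% did. Another 143 cells lacked Ccr7 but met the sum, and 37.8% of them held Socs2. Socs2 was seen in 74.7% of 99 cells that met the rule but held T or B cell UMIs.

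Migratory DCs made up between 0.175% and 0.730% of the singly tagged cells of a sample, with a median of 0.503% over 11 samples. In the earlier library they were 43 of 5887 nulliparous cells (0.730%, 95% exact binomial interval 0.529 to 0.983), 16 of 2548 lactation cells (0.628%, 0.359 to 1.02), 10 of 2930 HT2 cells (0.341%, 0.164 to 0.627) and 9 of 4618 gestation cells (0.195%, 0.0892 to 0.370). In the later library they were 12 of 1832 HT2 cells (0.655%, 0.339 to 1.14), 15 of 2481 regression cells (0.605%, 0.339 to 0.995), 12 of 2177 GF cells (0.551%, 0.285 to 0.961) and 4 of 795 lactation cells (0.503%, 0.137 to 1.28). Balb/c gave 9 of 2016 cells (0.446%, 0.204 to 0.846), involution 9 of 2260 (0.398%, 0.182 to 0.755) and gestation 6 of 3420 (0.175%, 0.0644 to 0.381). The gestation sample was the lowest in each library. The earlier gestation interval did not overlap that of the nulliparous sample, and the later one overlapped those of the other 6 samples of its library. The intervals cover counting error only, and cells of 1 tag may come from 1 or several mice.

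Lactation and gestation, present in both libraries, allowed a comparison over samples. The share was 0.566% ± 0.0882 (SD, n = 2) in lactation and 0.185% ± 0.0138 (SD, n = 2) in gestation, 3.05-fold, with 3.22-fold in the earlier and 2.87-fold in the later library. The 2 stages did not overlap, but the two-sided exact permutation p over the 4 samples was 0.333, the smallest that 2 against 2 can give. Within libraries it was 0.5, again the smallest possible. The difference in mean share was larger than the SD over the 2 samples of each stage. The exact binomial intervals of lactation and gestation nevertheless overlapped in each library. They were 0.359 to 1.02 and 0.0892 to 0.370 in the earlier library, and 0.137 to 1.28 and 0.0644 to 0.381 in the later. An SD of 2 samples therefore does not show that the difference exceeds counting error, and a permutation test of this size cannot reach 0.05. After thinning every cell to 1000 UMIs the gestation shares were 0.121% and 0.119%, and the lactation shares 0.394% and 0.613%. Thinning left out 1478 and 48 gestation cells and 240 and 12 lactation cells that were shallower. The whole rule was applied after thinning, so cells could enter by losing their T or B cell UMIs. The later lactation sample thus went from 4 to a mean of 4.8 migratory DCs among the same 783 cells, 0.511% before thinning.

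The picture differed when only DCs were the denominator. Migratory DCs were 32.3% (24.5 to 41.0) of the gated DCs (migratory, cDC1 and cDC2 together) of the nulliparous sample, 16.0% (9.43 to 24.7) of the earlier lactation sample, 10.2% (4.78 to 18.5) of the earlier gestation sample and 5.32% (2.58 to 9.56) of the earlier HT2 sample. In the later library regression was highest at 30.0% (17.9 to 44.6) and HT2 lowest at 9.38% (4.94 to 15.8). The later gestation sample, at 18.8% (7.21 to 36.4), lay next to the later lactation sample at 20.0% (5.73 to 43.7). That gestation sample was therefore low in migratory DCs per immune cell and in the middle of the samples per DC. Both HT2 samples were low per DC and held the most cDC1 (2.97% of cells in the earlier library) and cDC2 (3.11% and 3.33%), against 0.832% and 0.696% in the nulliparous sample.

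**Figure D1:**
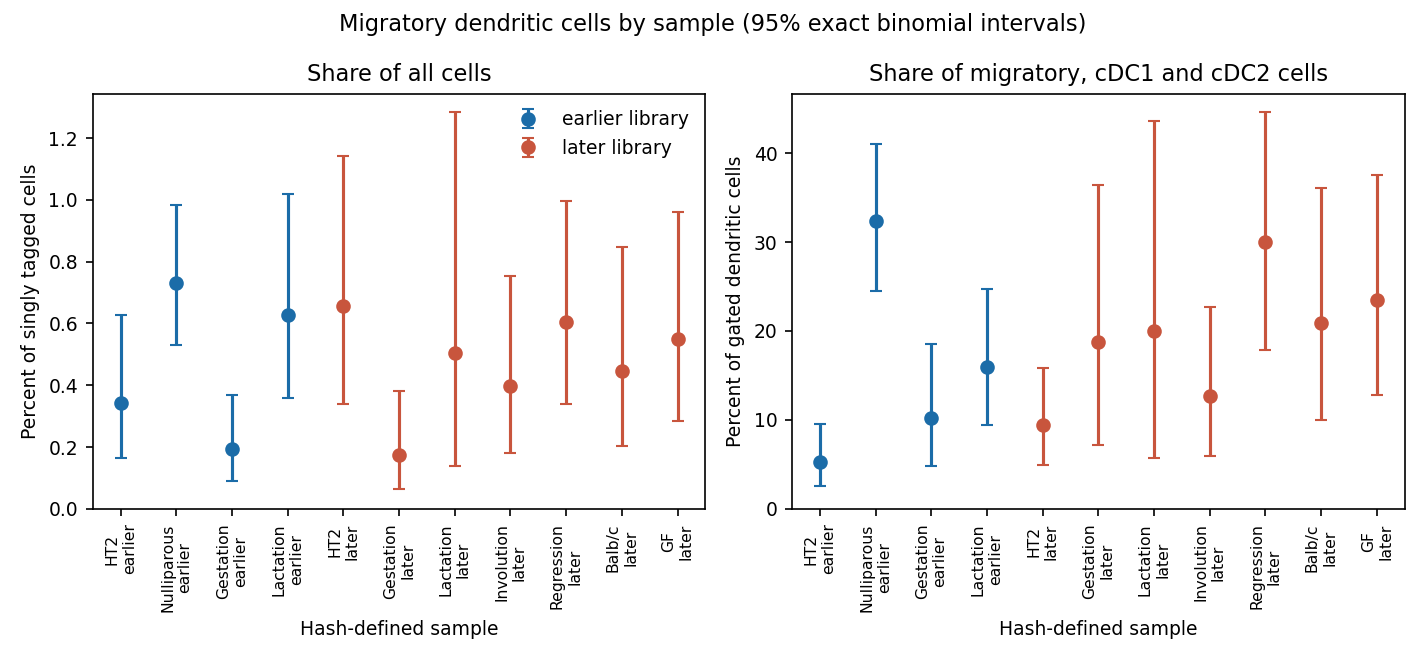
Share of migratory DCs among all singly tagged cells (left, percent) and among gated dendritic cells (right, percent) in each hash-defined sample, with 95% exact binomial intervals; blue points are the earlier library and red points the later. The gestation samples, at 0.195% and 0.175%, are the lowest of their library on the left, and the HT2 samples, at 5.32% and 9.38%, are the lowest on the right.

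For a description of the programme, levels in migratory DCs were set beside those of cDC1 (476 cells with Xcr1 or Clec9a) and cDC2 (483 cells with Cd209a and neither of these), gated with at least 10 UMIs summed over H2-Aa, H2-Ab1, H2-Eb1 and Cd74 and no C1q UMI. Levels are UMIs per 10000 UMIs, summed over the cells of a sample. The 6 samples with at least 10 cells on every side entered (HT2, nulliparous and lactation of the earlier library, HT2, regression and GF of the later, 108 migratory DCs), and values are means ± SD over these 6. A gene was called higher or lower when its mean differed at least 2-fold and in the same direction in 6 of 6 samples. Genes were compared when their mean over the 2 sides was at least 0.5 per 10000. A gene that reached this level through 1 side only could come out only higher on that side. That held for each compared gene below 0.5 per 10000 on 1 side, whether or not it is named again. List counts and medians are in part set by this limit. Since the cells were chosen by expression, no test was made. Against cDC1, 12.8% of 2466 genes were called higher and 14.3% lower. Against cDC2, 11.0% of 2614 genes were called higher and 17.2% lower. Against both, 232 of 2311 genes (10.0%) were called higher and 217 (9.39%) lower, and nothing is read from list counts beyond a description beside these shares.

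Outside the rule, the genes highest above both gates were Apol7c, H2-M2, Nudt17, Zmynd15, Socs2, Ankrd33b, Slco5a1, Synpo2, Mmp25, Il12b, Tnfrsf4, Mreg, Snn, Il2ra and Sema6d. Apol7c, an apolipoprotein L family member, stood at 9.12 ± 6.12 per 10000 against 0.0670 ± 0.164 in cDC1, 136-fold. Apol7c ranged widely between samples, from 0 UMIs in the 33461 of the Balb/c cells, which allows up to 1.10 per 10000, to 25.6 in the later gestation sample. Socs2 stood at 5.43 ± 1.03 against 0.0758 ± 0.0944 in cDC2, 71.6-fold. Nudt17, a Nudix-family hydrolase gene, stood at 2.08 ± 1.14 and had no UMI in either gate, at least 84.8-fold higher by a floor of 3 counts over a gate. Tnfrsf4 (OX40) stood at 1.16 ± 0.450 and Il2ra (CD25) at 1.08 ± 0.435, both better known from activated T cells. Of the T cell list, 12 genes, Cd3d, Cd3e and Cd3g were at 0 by the rule and Cd4 was at 0 in all 180 cells. The list as a whole held 134 UMIs in 51 of the 180 cells. In singly tagged cells it summed to 0.980 per 10000 in the earlier and 1.49 in the later library. The cDC1 and cDC2 gates held 0.558 and 0.725. A T cell source of these RNAs was not tested. Sema6d, a semaphorin, stood at 1.16 ± 0.501 and the metalloprotease gene Mmp25 at 2.24 ± 1.14.

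The genes lowest below both gates were Cyth4, Ccr2, Retnla, Iqgap2, Marchf1, 9930111J21Rik2, Sla, Arhgap15, Fgfr1 and Ptpre. Ccr2, the receptor that draws monocytes and DC precursors into tissue, stood at 0.236 ± 0.235 per 10000 against 5.46 ± 1.75 in cDC1 and 10.0 ± 2.09 in cDC2. Ccr2 was thus lower than in both gates. Marchf1, whose product ubiquitinates MHC class II and CD86 and so hastens their turnover, had 2 UMIs in the migratory DCs of these samples. Its mean was 0.0305 ± 0.0746 per 10000, against 1.28 ± 0.275 in cDC1 and 1.22 ± 0.257 in cDC2, and it was at 0 in 10 of 11 samples.

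**Figure D2:**
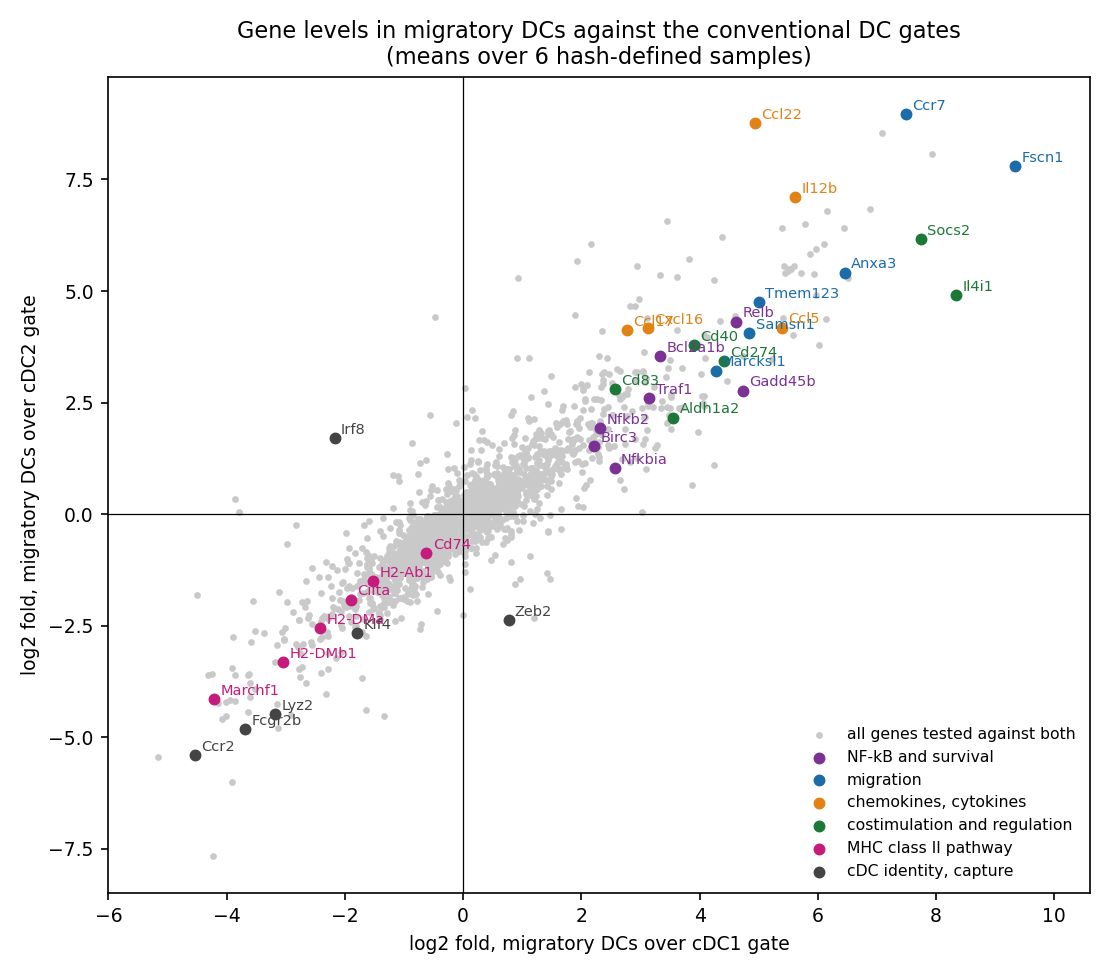
Log2 fold of migratory DCs over the cDC1 gate (x axis) and over the cDC2 gate (y axis) for each gene tested against both, from means over 6 samples; grey points are all 2311 genes and coloured points are genes of the named groups. Of the genes named in the plot, Relb, Tmem123, Samsn1, Il4i1 and Socs2 lie at the upper right, H2-DMb1, Marchf1 and Ccr2 at the lower left, and Irf8 lies below 0 against cDC1 and above 0 against cDC2.

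Costimulatory molecules split by gene. Of 10 listed, 6 could be compared with cDC1 (4 higher, 1 lower) and 5 with cDC2 (3 higher, 1 lower). The list's median log2 fold was 2.04 and 2.39, beside -0.19 and -0.25 over all genes. Cd83, which stabilises surface MHC class II and CD86, stood at 8.35 ± 2.65 against 1.41 ± 0.420 in cDC1 and 1.20 ± 0.883 in cDC2. Cd40, the receptor for T cell help, stood at 1.87 ± 1.33 against 0.124 ± 0.0755 and 0.135 ± 0.0950. Cd40 reached the level compared only through the migratory DCs, so it could only be higher. Icosl was higher than in both gates and Icam1 than in cDC1. Cd86 at 0.587 ± 0.654 was not called against cDC1 (0.949 ± 0.238), and Cd48 at 0.667 ± 0.389 was lower than in both. Cd80 was below the level compared.

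Regulatory genes stood beside them. Of 16 listed, 6 could be compared, and 5 were higher and 1 lower against each gate, with medians of 3.98 and 3.03 on the log2 scale. Il4i1, Cd274, Aldh1a2 and Socs2 reached the level compared only through the migratory DCs, so they could only be higher. Tgfb1 reached it only through the gates, so it could only be lower. Il4i1, a secreted amino acid oxidase that restrains T cells, stood at 7.75 ± 1.80 per 10000 against 0.257 ± 0.240 in cDC2, 30.1-fold, with no UMI in cDC1. Il4i1 lay between 5.30 (involution) and 11.2 (regression) over all 11 samples. Cd274 (PD-L1) stood at 0.991 ± 0.962 against 0.0465 ± 0.0819 in cDC1 and 0.0922 ± 0.0752 in cDC2. Aldh1a2, which makes retinoic acid, stood at 1.44 ± 0.768 against 0.123 ± 0.0611 and 0.322 ± 0.363, and Cd200, an inhibitory ligand, was also higher. Tgfb1 was lower, at 0.288 ± 0.197 against 1.40 ± 0.483 and 1.92 ± 0.685. Il10 had no UMI in the 145 singly tagged cells, and Ido1 was seen in 0.690% of them.

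Chemokines were led by Ccl5, a chemokine that attracts T cells and monocytes, at 82.5 ± 59.4 per 10000 against 1.97 ± 2.16 in cDC1 and 4.55 ± 7.03 in cDC2. Empty droplets of the earlier library held Ccl5 at 20.1 per 10000, above the level in both DC gates and below the lowest migratory DC sample (35.2, the later HT2 sample). Its highest sample was the nulliparous one at 187, where 1 cell gave 30.6% of the 2310 UMIs of the chemokine list. Cxcl16 stood at 6.53 ± 1.34 against 0.747 ± 0.366 and 0.362 ± 0.271. Of 9 listed chemokines, 6 could be compared with cDC1 (3 higher, 0 lower) and 7 with cDC2 (4 higher, 1 lower), Ccl22 of the rule among the higher ones. Ccl17, the partner of Ccl22 on CCR4, was called against cDC2 and higher than cDC1 in 5 of 6 samples. Ccl4 was lower than in cDC2. Among 9 cytokines, Il12b, a subunit of IL-12 and IL-23, was higher than in both gates, at 3.40 ± 3.70, and the partner subunits Il12a and Il23a had no UMI.

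Cytokine and chemokine receptors included both higher and lower genes. Of 14 listed, 12 could be compared with cDC1 (8 higher, 1 lower) and 13 with cDC2 (5 higher, 3 lower), Ccr7 of the rule included. Il15ra, which presents IL-15, stood at 1.25 ± 1.20 against 0.0296 ± 0.0460 in cDC2, 42.2-fold, with 3 UMIs in cDC1. Csf2rb, the shared GM-CSF receptor chain, stood at 3.23 ± 0.866 against 0.583 ± 0.174 in cDC1 and 1.15 ± 0.311 in cDC2, and Il4ra was higher than in both. Ifngr1, the interferon-gamma receptor, was lower than in both, at 0.504 ± 0.291 against 3.72 ± 0.724 and 2.30 ± 0.377. Prlr, the prolactin receptor, had no UMI in any of the 11 samples.

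Antigen presentation genes divided by class. Of 12 class II and loading genes, 0 were higher, 7 were lower than in cDC1 and 5 lower than in cDC2, with medians of -1.66 and -1.36 on the log2 scale. H2-DMb1, a chain of the peptide-loading chaperone H2-DM, stood at 0.547 ± 0.148 against 4.49 ± 0.527 in cDC1 and 5.46 ± 0.335 in cDC2. Ciita, the master activator of class II genes, stood at 0.709 ± 0.742 against 2.63 ± 0.513 and 2.67 ± 0.552. The gates require class II UMIs and the rule does not, so the class II genes were compared again in the 52 of 108 migratory DCs that meet the gates' limits. There H2-Ab1 was 0.397-fold of cDC1, H2-DMa 0.237-fold and H2-DMb1 0.0990-fold, each lower in 6 of 6 samples, as were H2-Oa and Marchf1. H2-Aa and Cd74 were at 0.779 and 0.775 of cDC1 and were not called, nor was Ciita against cDC2, at 0.332-fold and lower in 5 of 6 samples. Of 10 class I and loading genes, 4 were higher and 0 lower than in cDC1, and of 9 compared with cDC2, 7 were higher and 0 lower. H2-K1 stood at 29.0 ± 6.26 against 9.53 ± 1.94 and 12.0 ± 1.45, and Nlrc5, the class I counterpart of Ciita, at 1.75 ± 0.944 against 0.377 ± 0.205 and 0.292 ± 0.166.

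Of 18 genes of antigen capture and pattern recognition, 8 could be compared with cDC1 (0 higher, 5 lower) and 10 with cDC2 (0 higher, 9 lower). Xcr1, Clec9a and Cd209a among them define the gates, and a gene that reached the level compared only through a gate had to be lower there. Of 5 compared with both gates, Fcgr2b and Lyz2 were lower than in each. Fcgr2b, the inhibitory Fc receptor, stood at 0.117 ± 0.156 against 1.5 ± 0.521 in cDC1 and 3.28 ± 0.634 in cDC2. Lyz2, which encodes lysozyme, stood at 1.27 ± 0.831 against 11.5 ± 3.28 and 28.3 ± 11.5. Cell cycle genes were also low, with 3 of 5 compared lower than in cDC1 and 2 of 5 lower than in cDC2. Pcna, for example, stood at 0.422 ± 0.178 against 1.55 ± 0.873 and 1.32 ± 0.379. Pcna also reached the level compared only through the gates, so it could only be lower.

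Of the NF-kB transcription factors, Relb, Rel and Nfkb2 were higher than in both gates, and Nfkb1 and Rela were not. Of 21 factors listed, 18 could be compared with each gate (7 higher and 3 lower than cDC1, 8 higher and 4 lower than cDC2). Relb, the subunit of the alternative NF-kB pathway, stood at 7.14 ± 0.862 against 0.290 ± 0.178 in cDC1 and 0.359 ± 0.123 in cDC2, 24.6-fold and 19.9-fold. Relb lay between 5.83 (later lactation) and 10.5 (Balb/c) over all 11 samples, 1.79-fold. Its partner Nfkb2 stood at 2.03 ± 0.412 against 0.406 ± 0.258 and 0.532 ± 0.277, and Rel at 5.55 ± 2.25 against 1.41 ± 0.317 and 1.73 ± 0.240. Relb against both gates, and Nfkb2 against cDC1, reached the level compared only through the migratory DCs, so they could only be higher. Nfkb1 was not called against cDC1 and was lower than in cDC2 (1.02 ± 0.508 against 2.12 ± 0.547). Rela stood at 0.919 ± 0.627 against 0.386 ± 0.131 and 0.622 ± 0.140 and was not called against either gate. Stat4, Nr4a3 and Etv3 were higher than in both gates, and Klf4 was lower than in both. Irf8, the cDC1 factor, stood at 4.38 ± 2.25, between 19.8 ± 1.01 in cDC1 and 1.34 ± 0.848 in cDC2. Irf4, which is known for cDC2 migration, stood at 0.206 ± 0.177, lower than in cDC2 (1.32 ± 0.246). Irf4 reached the level compared there only through cDC2, so it could only be lower.

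Genes of NF-kB feedback and survival showed a like picture, with 7 of 12 compared higher than in cDC1 and 0 lower, and 7 of 12 higher than in cDC2 and 1 lower. Gadd45b, a stress and NF-kB responsive survival gene, stood at 11.4 ± 2.12 against 0.429 ± 0.224 and 1.68 ± 0.533. Traf1, an adaptor of TNF receptors, stood at 9.83 ± 3.25 against 1.11 ± 0.216 and 1.62 ± 0.403, and Birc2 at 4.75 ± 2.38 against 0.271 ± 0.221 and 0.301 ± 0.0893. Birc2 against both gates, and Gadd45b against cDC1, reached the level compared only through the migratory DCs, so they could only be higher. Nfkbia, the inhibitor IkBa, stood at 9.17 ± 3.27 against 1.55 ± 0.309 and 4.51 ± 1.88. The summed level of the list varied 1.48-fold over the 11 samples, from 44.3 in the later gestation sample to 65.6 in GF.

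The promoters of the called genes were read for NF-kB consensus matches, in the 250 bases before each annotated start in RefSeq (build GRCm38.p6). The consensus was searched on both strands, and overlapping matches were counted separately. Of the 232 genes higher than in both gates, 184 had a promoter in the table, and 29 of these (15.8%) held a match. The share was 6.40% of 1858 genes among all compared, 3.53% of 170 among the genes lower than in both gates, and 4.46% of 27025 genes in the whole table. A second motif, the STAT palindrome TTCNNNGAA, was found in 3.80% of the higher genes, 8.24% of the lower and 6.89% of all compared. Of 45 genes looked up singly (list genes higher than in both gates, with Ccl17, Ccr7 and Cacnb3), 33 had a promoter in the table. Matches lay before 7 of them: B2m, H2-K1, Il2ra, Nfkb2, Nfkbia, Rel and Tnfaip3. A match is a string of letters, not a shown binding site.

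The promoters of 3 NF-kB pathway genes with matches are given 5′ to 3′, since genes of this pathway were higher than in both gates; capitals mark consensus matches. Nfkb2 lies at chr19:46304487-46304736 on the plus strand and holds 3 matches, the first starting 39 bases before the start. Nfkbia lies at chr12:55492648-55492897 on the minus strand and holds 1, starting 29 bases before. Rel lies at chr11:23770970-23771219 on the minus strand and holds 2 that overlap, the first starting 92 bases before.
Nfkb2: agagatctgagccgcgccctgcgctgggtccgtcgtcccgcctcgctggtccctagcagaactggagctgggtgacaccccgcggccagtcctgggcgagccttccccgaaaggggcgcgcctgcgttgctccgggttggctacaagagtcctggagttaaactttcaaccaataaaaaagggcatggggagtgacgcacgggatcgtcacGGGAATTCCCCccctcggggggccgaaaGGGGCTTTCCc
Nfkbia: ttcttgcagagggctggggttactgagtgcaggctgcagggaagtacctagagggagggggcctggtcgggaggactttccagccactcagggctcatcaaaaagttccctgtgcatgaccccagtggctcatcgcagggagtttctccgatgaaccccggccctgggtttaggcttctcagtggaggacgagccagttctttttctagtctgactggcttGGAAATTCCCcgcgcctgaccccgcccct
Rel: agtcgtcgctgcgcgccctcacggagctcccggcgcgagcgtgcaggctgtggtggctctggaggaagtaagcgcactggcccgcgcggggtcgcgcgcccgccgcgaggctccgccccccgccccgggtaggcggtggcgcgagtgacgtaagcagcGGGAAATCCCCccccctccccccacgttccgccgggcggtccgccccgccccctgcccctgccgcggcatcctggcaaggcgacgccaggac
The Nfkb2 window shown ends 1 base after the last match, and its other 2 annotated starts each have 1 match of their own.

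Cytoskeletal and migration genes were mostly higher. Of 14, 9 were higher and 1 lower than in each gate, Fscn1 of the rule included, with medians of 2.17 and 2.20 on the log2 scale. Tmem123, a cell surface mucin-like protein, stood at 23.3 ± 8.30 against 0.724 ± 0.171 in cDC1 and 0.864 ± 0.338 in cDC2. Samsn1, an adaptor of actin regulation, stood at 13.1 ± 3.87 against 0.456 ± 0.232 and 0.786 ± 0.284. Marcksl1, which links membrane and actin, stood at 8.62 ± 3.95 against 0.446 ± 0.229 and 0.928 ± 0.474, and Anxa3, an annexin, at 4.34 ± 1.92 against 0.0494 ± 0.0547 and 0.102 ± 0.0384. Anxa3 against both gates, and Samsn1 and Marcksl1 against cDC1, reached the level compared only through the migratory DCs, so they could only be higher. Swap70, a regulator of actin, was also higher than in both. Coro1a, an actin-binding coronin, was lower, at 3.89 ± 1.02 against 8.48 ± 1.90 and 11.7 ± 1.26.

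Levels varied between samples to a different degree by gene group. Fscn1 lay between 11.0 (earlier HT2) and 31.7 (Balb/c), with a median of 15.8 per 10000 over the 11 samples. Traf1 lay between 6.12 (regression) and 14.8 (earlier lactation). Cd74, the invariant chain of class II, spanned 36.7 (nulliparous) to 162 (regression), and the summed class II list spanned 3.19-fold. Ccl5 spanned 35.2 to 187, and Il12b 0.124 (later HT2) to 9.81 (GF), where 1 cell gave 70.3% of the cytokine UMIs. The interferon-stimulated list was highest in the later HT2 sample at 40.0 per 10000, with 78.6% of its UMIs from 1 cell, against a median of 12.2. These extremes each rest on 4 to 43 cells.

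**Figure D3:**
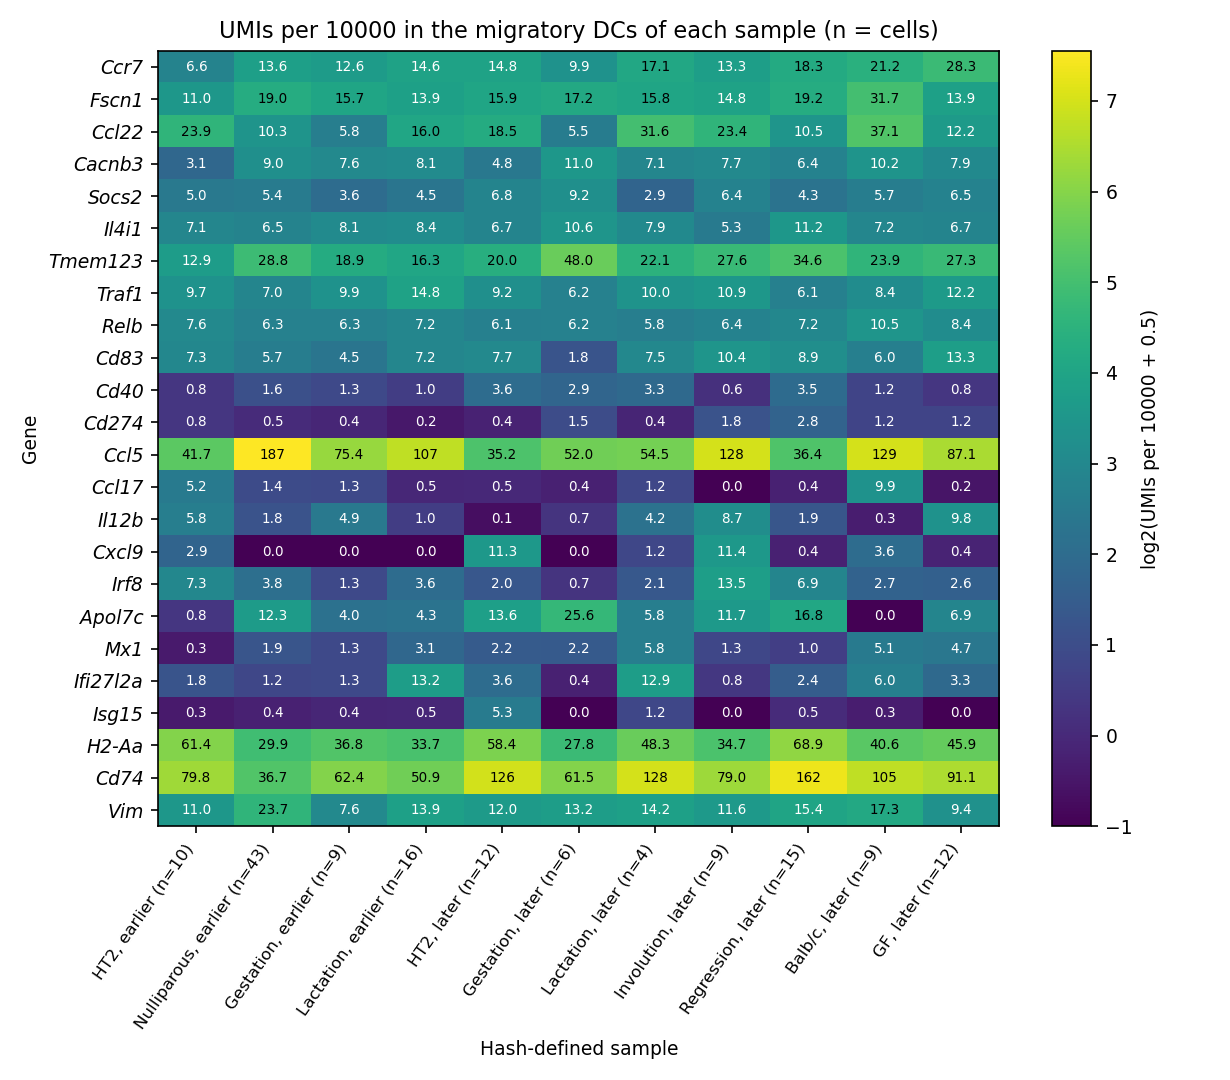
UMIs per 10000 UMIs for 24 genes (rows) in the migratory DCs of 11 hash-defined samples (columns, n = cells), with the colour on a log2 scale. Relb and Il4i1 stay within narrow ranges, 5.83 to 10.5 and 5.30 to 11.2, while Ccl17, Il12b and Cxcl9 vary from near 0 to about 10 per 10000.

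Lactation and gestation could be set side by side in migratory DCs, with 16 and 4 lactation cells and 9 and 6 gestation cells in the earlier and later library, too few for a test across genes. Genes named here were chosen after their values were seen. Of 1119 genes with a mean of at least 1 per 10000, 83 (7.42%) were at least 2-fold higher in lactation with no overlap of the 2 and 2 samples, and 70 (6.26%) were lower. Of 74 such genes on the lists, 9 were higher (among them Adam8, Ccl22, Cd83, Coro1a, H2-Ab1, Ifi27l2a, Irf8 and Mx1) and 2 lower (Il7r and Zeb2). When each lactation sample lost the cell with most UMIs of the gene, 5 of the 9 still lay above both gestation samples, and Adam8, Coro1a, H2-Ab1 and Irf8 did not. The lowest lactation level was then 8.79 per 10000 for Ifi27l2a, against 1.35 in the highest gestation sample, and 9.61 against 5.84 for Ccl22. For Cd83 it was 5.03 against 4.49, and for Mx1 2.26 against 2.20, so these were close to gestation. In the later lactation sample 1 cell gave 98.4% of the H2-Ab1 UMIs, and without it the level fell from 25.4 to 0.628 per 10000.

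Ifi27l2a, an interferon-stimulated gene, stood at 13.2 per 10000 in the earlier lactation sample (95% Poisson interval 9.91 to 17.1) and 12.9 in the later (8.77 to 18.3). In gestation it stood at 1.35 (0.278 to 3.94) and 0.366 (0.00927 to 2.04). It was seen in 10 of 16 and 3 of 4 lactation cells, and in 3 of 9 and 1 of 6 gestation cells. Without the cell with most UMIs the lactation levels were 8.96 and 8.79. In the cDC1 gate the same gene stood at 15.6 and 15.0 in lactation and 3.77 and 3.15 in gestation, and in all cells other than migratory DCs at 9.65 and 9.83 against 4.68 and 5.82, so the direction was not particular to migratory DCs. The interferon-stimulated gene Mx1 (3.11 and 5.83 against 1.35 and 2.20) differed in the same direction, but only narrowly without the cells with most UMIs. Ccl22 stood at 16.0 and 31.6 in lactation against 5.84 and 5.49 in gestation, but it chose the cells, and 1 cell gave 80.3% of its UMIs in the later lactation sample. Cd83 stood at 7.18 and 7.49 against 4.49 and 1.83, while in the cDC1 gate it stood at 0.710 and 0.244 in lactation and 1.83 and 1.17 in gestation.

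Migratory DCs were not uniform. Among the 145 singly tagged cells, Il12b was seen in 26 (17.9%, 95% interval 12.1 to 25.2) and Ccl17 in 22 (15.2%, 9.76 to 22.1), and 3 cells held both. B cells held Il12b in 0.0453% and Ccl17 in 0.204%. Il12b cells occurred in 11 of 11 samples and Ccl17 cells in 10 of 11, with none among the 9 involution cells. Cells with Il12b were deeper, with a median of 4669 UMIs against 2944, and those with Ccl17 had 3670 against 3074; the part of depth was not tested. The genes that follow were chosen after their values were seen and carry no test.

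Cells with Il12b held more Irf8, 11.4 against 2.75 per 10000, 4.34-fold in the earlier and 4.06-fold in the later library. They also held more Cst3 (cystatin C, abundant in cDC1), 229 against 75.2, more Txndc17, 16.9 against 3.22, and more Cd83, 12.5 against 6.19. Ccr7, which is part of the rule, stood at 24.9 against 12.8 in them. They held less Apol7c, 2.42 against 13.6, and less Clu, 0.471 against 3.88. Sirpa had 1 UMI in them and 34 in the larger set of cells without Il12b. With Ccl17 cells left out, Sirpa stood at 0.0750 against 0.586 per 10000, from 1 and 22 UMIs. Fscn1 (16.2 against 17.6), Cacnb3 (7.26 against 7.36) and Il4i1 (6.93 against 8.04) were nearly level between the 2 sets.

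Cells with Ccl17 differed in other genes. Ccl22, which is part of the rule and so helped choose the cells, stood at 34.9 against 12.7 per 10000. The ratio was 4.42-fold in the earlier and 2.21-fold in the later library. Aldh1a2 stood at 3.52 against 0.924, Vim at 25.7 against 12.9, and Sirpa at 1.28 against 0.452. Ccl5 was lower in them, 33.4 against 102, as was Id2, 5.87 against 10.4. The cells without Ccl17 included 23 of the 26 Il12b cells, so the comparison was repeated with Il12b cells left out, 19 cells with Ccl17 against 100 without, an alternative chosen after seeing the data. There Ccl22 stood at 38.5 against 9.27 per 10000, and 99 of its 302 UMIs in the Ccl17 cells came from 1 Balb/c cell. Aldh1a2 stood at 4.21 against 0.826, Vim at 28.2 against 12.0, and Ccl5 at 39.1 against 110. Id2 was 0.496-fold of its level without Ccl17. Irf8 was 2.99 against 5.23 with all cells, where Il12b cells gave 163 of the 266 Irf8 UMIs of the cells without Ccl17, and 2.81 against 2.74 with Il12b cells left out. In the Il12b comparison with Ccl17 cells left out, Irf8 stood at 12.2 against 2.74. Cells of a sample share their library.

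**Figure D4:**
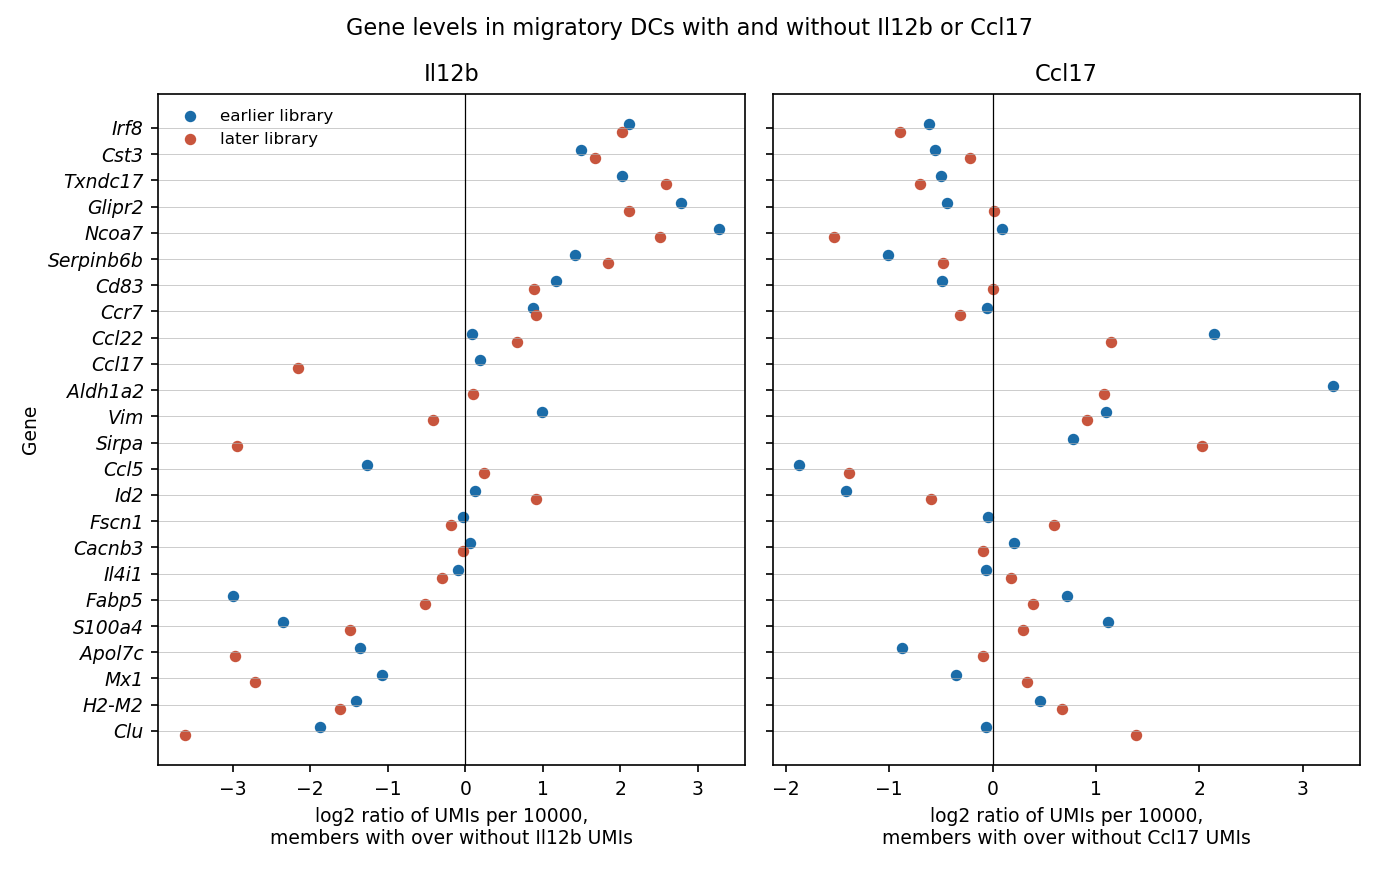
Log2 ratio of UMIs per 10000 between migratory DCs with and without an Il12b UMI (left) and with and without a Ccl17 UMI (right), for 24 genes, blue for the earlier library and red for the later; a ratio with 0 UMIs on 1 side is not drawn. Irf8 lies above 0 on the left in both libraries; on the right its log2 ratio is below 0, where the cells without Ccl17 include 23 of the 26 Il12b cells. Fscn1 and Cacnb3 lie near 0 on the left.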

How the data were processed

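CD45+ mammary cells were profiled by 10x 3' v3.1 gene expression and hash tag libraries, per the labels' protocols. The submitters' processing notes name Cell Ranger 6.1.0 and mm10; the header of the earlier matrix names Cell Ranger 4. The authors deposited UMI counts per gene and barcode and tag counts per barcode; sample names came from the deposited sheets. Barcodes under 500 UMIs or 300 genes, or with over 10% of UMIs from mitochondrial genes, were dropped. Tags were called with HTODemux (Seurat 5.3.0, R 4.3.3, quantile 0.99), and doublets with Scrublet (scanpy 1.11.5, expected rate 0.08) but not removed. Nulliparous tag HT4 had no called cells in the later library. B cells held at least 2 UMIs of Cd79a and Ms4a1 and no Cd3 UMI.

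Migratory DCs, cDC1, cDC2 and the lists of genes were chosen with earlier results of these data known. Counts were summed per sample. Genes with a mean of at least 0.5 per 10000 over the 2 sides were compared with the gates. The genes named outside the lists were those outside the rule with the largest fold against both gates, 15 higher and 10 lower, at a level of at least 1 per 10000 and in the same direction in every sample. Shares have exact (Clopper-Pearson) and levels exact Poisson 95% intervals, for counting error only. Zero counts were set to a floor of 3 over the gate. Thinning used 20 draws. The planned edgeR quasi-likelihood test of lactation against gestation needed 10 migratory DCs in each sample and was not run. Whether samples of a stage came from separate mice is not given, so the spread between them may be technical. The rule for calling genes against the gates was tested on simulated counts. These were drawn with counting error only, so variation between cells or samples was not covered. Values of 1 listed gene are not reported here.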

Additional observations from a re-analysis of the deposited data

How the results depend on the processing

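The share of migratory DCs was higher in lactation than in gestation under each alternative tried: the log2 ratio was 1.61 as reported, 2.07 after thinning, 1.70 without doublet calls, 1.79 with 1 T and 1 B cell UMI allowed, 1.73 with stricter tag calls, and 1.52 to 1.69 with 1 library left out. The stricter tag calls left 177 cells with 2 migratory DCs in the later lactation sample, against 795 and 4 as reported. In the earlier lactation sample they left 1373 cells with 7, against 2548 and 16. The exact permutation test of 2 against 2 samples cannot reach a p of 0.05. Paired by library, as a replicate block chosen after seeing the data, the log2 ratio was 1.60. The number of migratory DCs was 144 with at least 2 Ccr7 UMIs, 167 with a sum of at least 3 for the other genes, 174 without doublet calls and 207 with 1 T and 1 B cell UMI allowed. The comparisons with the gates were repeated under 10 alternatives chosen after seeing the data: without the HT2 samples, without each of the 6 samples, without doublet calls, with T and B cell UMIs allowed, and with the gates' limits on the migratory DCs. Genes higher than in both gates numbered 191 to 283, against 232, and genes lower 210 to 297, against 217. The planned test of genes between lactation and gestation, with its alternatives (other scaling, no filter, DESeq2, no library block, doublets, T and B cell UMIs, samples left out), was not run, since 3 of 4 samples had fewer than 10 cells. Low cell numbers, 4 to 43 per sample, limit all values by sample.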
